A study of Mus musculus with 20 samples.

Results

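T cells enter lymph nodes from the blood, move within them and leave again, and 5 genes of this traffic are described here: Selplg, Ccr7, Gpr183, S1pr1 and Klf2. They were examined in a map of where Bcl11b, a zinc-finger protein that T cell development needs, and Foxp3, the factor that defines regulatory T cells (Treg), bind in mouse T cells. Regions of the deposited lists were taken for a gene when their centre was nearest to it among protein-coding genes, with 100 kb as the limit and a distance of 0 within a gene. This gave 28 of the 22081 distinct regions: 8 at Ccr7, 7 at S1pr1, 6 at Klf2, 5 at Selplg and 2 at Gpr183.

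Binding was measured by chromatin immunoprecipitation and sequencing in C57BL/6 cells sorted from draining lymph nodes and spleen, in 20 samples of 9 groups, 8 of them input DNA. Bcl11b was precipitated in 3 libraries of wild-type (WT) Treg cells and 3 of cells labelled Tn, both sorted as CD4+YFP+ from Foxp3-IRES-YFP-Cre mice, and in 2 libraries of KIKO cells, Treg cells devoid of Foxp3 that were sorted as CD4+GFP+ from Foxp3-GFPKO mice. Foxp3 was precipitated in 2 libraries of the WT Treg cells and in 2 of Bcl11b deficient Treg cells (Bcl11b-KO), which were CD4+YFP+ cells of Bcl11b f/f mice with the same Cre. All WT, Tn and Bcl11b-KO groups thus carried the YFP-Cre allele at Foxp3, and the deletion of Bcl11b was limited to cells that had used the Foxp3 gene. The labels do not expand Tn, and the sort markers they give for Tn are those of the Treg cells. The KIKO cells carry another reporter allele than the WT cells they were compared with, so allele and loss of Foxp3 cannot be told apart. The sources used here give neither ages nor pooling of animals, and do not say that replicates came from separate animals.

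There are 4 comparisons, each of 2 sets, and each puts a region in 1 of 3 classes: common to both sets, or specific to either. The 3 with Bcl11b share the WT Treg Bcl11b libraries, and the 2 with Foxp3 share those of WT Foxp3. The lists give positions in mm10 without score, read count or replicate value. They allow no test between groups and no check of depth, and each class below is the class of the deposited list. A region of a WT set is called lost when listed as WT-specific and kept when listed as common. Shares carry Wilson 95% intervals, which cover counting error only, and neighbouring regions of a gene are not independent. Levels of marker genes cannot be read from positions. Of the T cell genes checked, Cd3e had 5 regions, Cd4 had 1 and Foxp3 had 1, and 2 of 6 B cell genes and 2 of 6 myeloid genes had any. Over all protein-coding genes, 50.3% had a region, so these counts do not measure the purity of the cells.

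Entry into a lymph node begins with rolling that selectins mediate and continues with chemokine receptor signals. Selplg encodes P-selectin glycoprotein ligand, which selectins bind. Ccr7 encodes the receptor for the chemokines that guide T cells into lymph nodes and through the T cell zone, and Treg cells of the central, naive-like kind carry it. Gpr183 encodes the oxysterol receptor EBI2, which positions lymphocytes inside the organ. Exit follows sphingosine-1-phosphate, read by the receptor that S1pr1 encodes, and Klf2 is a zinc-finger transcription factor known to switch on S1pr1 in T cells.

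Start sites with sequence were found in the RefSeq table of GRCm38.p6 promoters, whose coordinates are those of mm10, for 2 of the 5 genes, Klf2 and Gpr183. In each of them a listed region covers the start site, so the bases of that region that lie before the start site are shown. In the Klf2 sequence, capitals mark matches to GGGCGG, the GC box bound by Sp and KLF proteins, and to CTANNNNTAG, a loose pattern for sites of MEF2 factors. N stands for any letter.
Klf2, chr8:72318846-72319061, plus strand: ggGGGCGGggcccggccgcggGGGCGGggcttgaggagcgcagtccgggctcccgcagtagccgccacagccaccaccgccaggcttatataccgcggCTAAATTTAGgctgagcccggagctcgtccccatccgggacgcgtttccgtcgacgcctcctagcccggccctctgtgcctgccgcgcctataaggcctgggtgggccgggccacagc
Gpr183, chr14:121965194-121965314, minus strand: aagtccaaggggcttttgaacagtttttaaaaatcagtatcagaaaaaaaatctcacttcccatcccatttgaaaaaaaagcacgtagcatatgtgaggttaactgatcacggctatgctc

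The Klf2 stretch of 216 bases was 72.7% G or C and the Gpr183 stretch of 121 bases 37.2%, against a median of 52.7% over the 32851 promoter windows of 300 bases in the table. The GC box matches of Klf2 began 214 and 195 bases before the start site, and 35.7% of all promoter windows hold at least 1 such match on either strand. The match to the loose MEF2 pattern began 118 bases before the start site, and 3.69% of windows hold that pattern. Both motifs were chosen after the sequence was seen. As background, MEF2 factors act on the Klf2 promoter downstream of the kinase ERK5. Of the motifs chosen earlier, searched on both strands, none was found in either 300-base window: forkhead TGTTTAC (3.65% of all windows), Runx TGTGGT (16.8%), Ets CCGGAAG (8.86%), KLF and Sp GGGCGTG (8.44%), CRE TGACGTC (3.21%) and AP-1 TGANTCA (7.81%). Matches describe letters only. The MEF2 pattern searched here allowed any inner letters, so a match need not be a MEF2 site. The match in Klf2 overlaps none of the other matches.

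**Figure D1:**
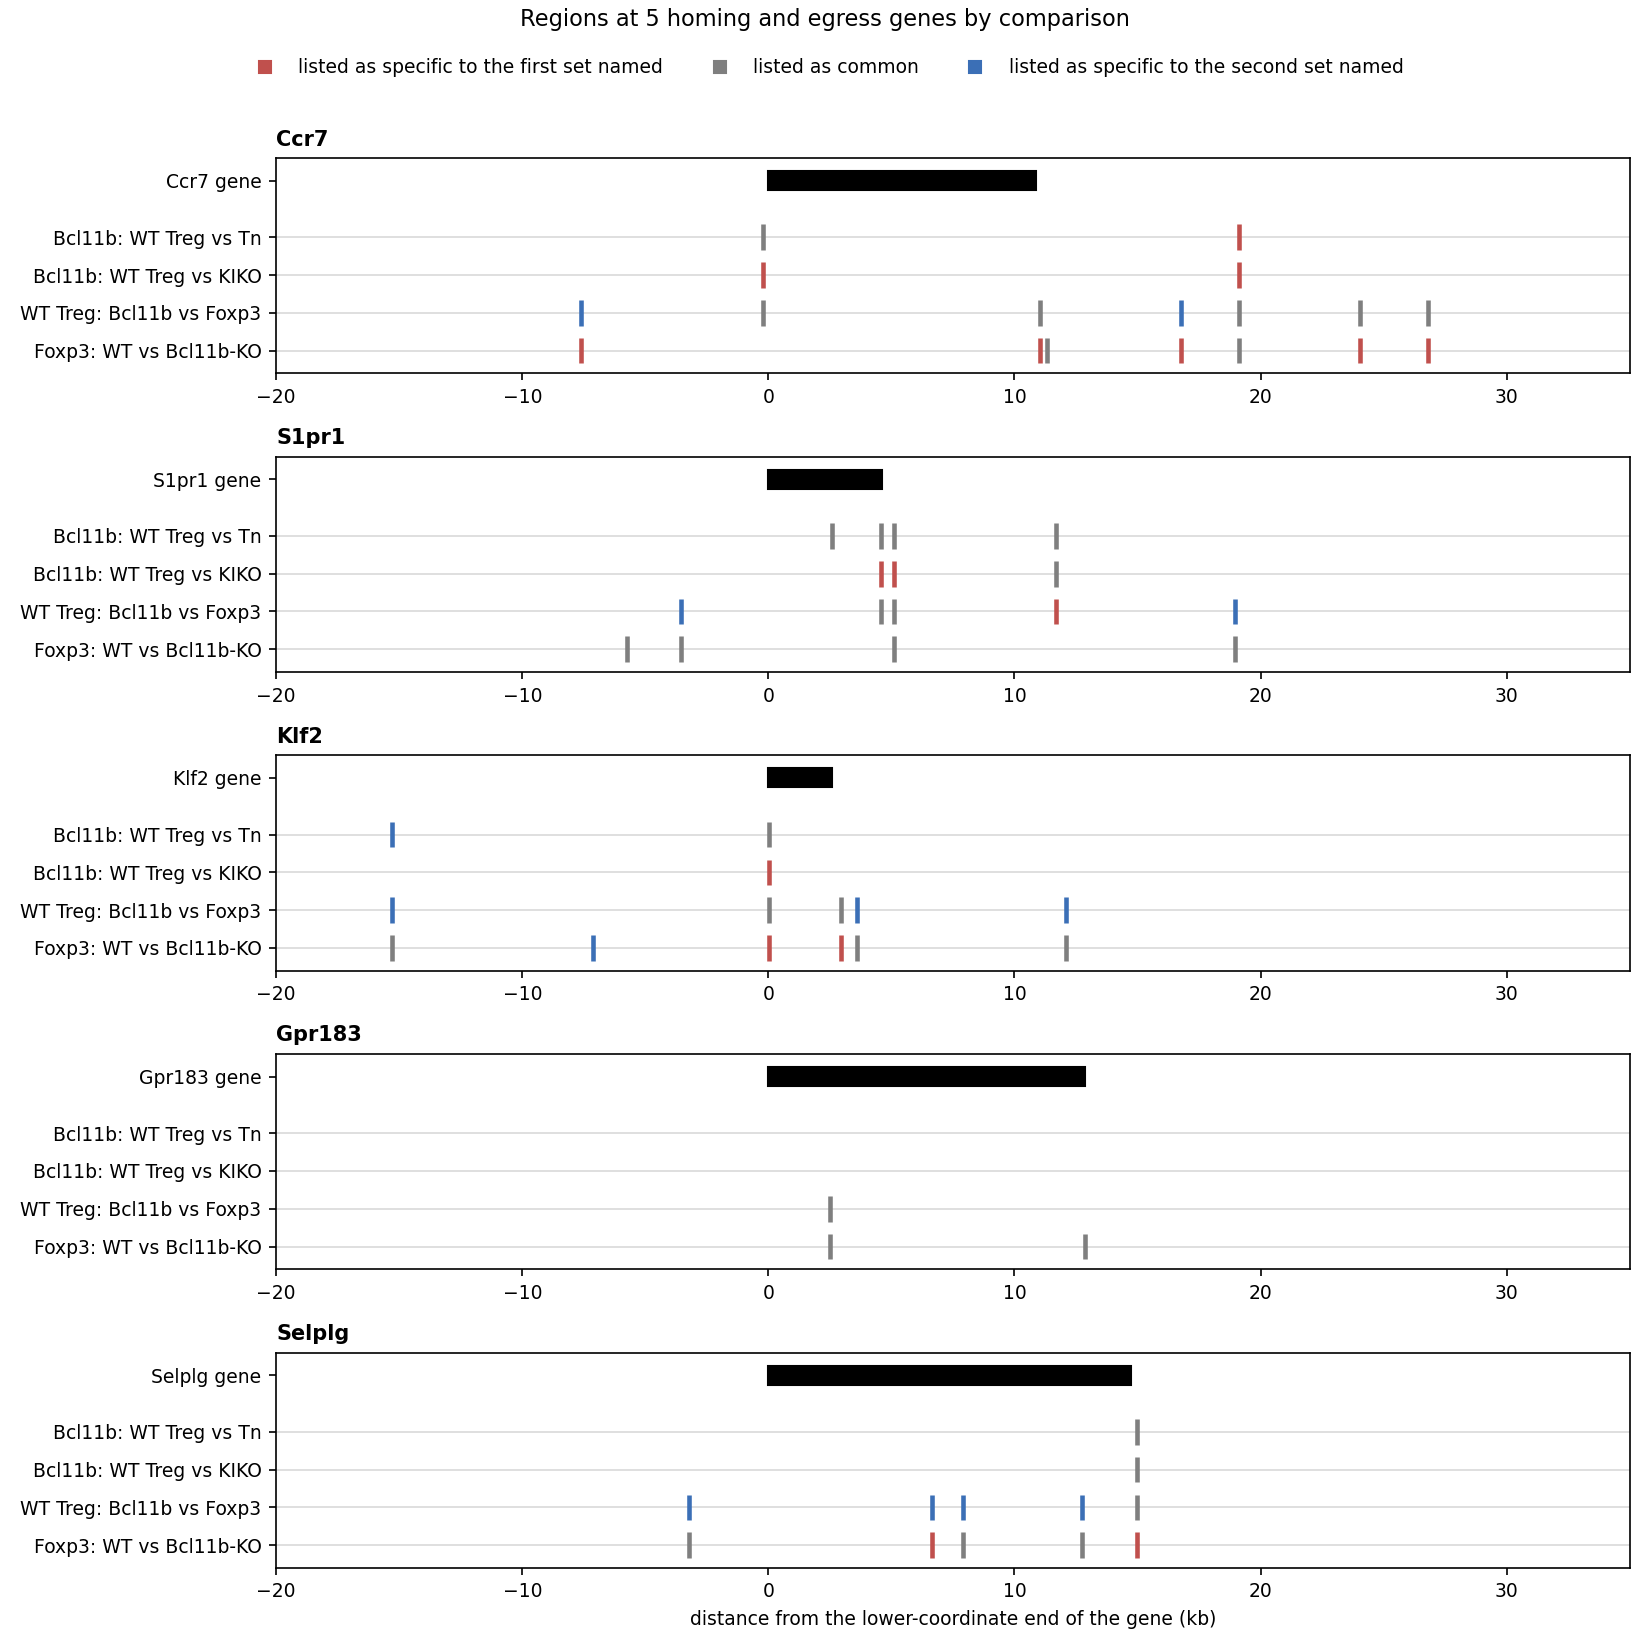
Positions of the 28 regions along the 5 genes, 1 panel a gene, with distance from the lower-coordinate end of the gene in kb on the horizontal axis, the gene as a black bar, and 1 line for each of the 4 comparisons. Each tick is a region, coloured by its class; Ccr7 has 5 red ticks on its bottom line, regions lost for Foxp3 in Bcl11b-KO cells, and S1pr1 has none.

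Selplg (Gene ID 20345, chromosome 5, 113817798 to 113832528) carried 5 regions, all listed for Foxp3 in WT Treg cells and 1 of them also for Bcl11b. The shared region, at 113832562 to 113832995, had its centre 250.5 bp beyond the higher-coordinate end of the gene. Bcl11b was listed there as common to WT Treg and Tn cells and as common to WT Treg and KIKO cells, so at this gene end it was kept without Foxp3. Foxp3 at the same region was listed as lost in Bcl11b-KO cells.

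The other 4 Selplg regions were listed for Foxp3 without Bcl11b. Inside the gene lay 3, at 113824318 to 113824537, 113825532 to 113825857 and 113830410 to 113830685, and the fourth at 113814408 to 113814731, 3.23 kb from the lower-coordinate end and nearer to Gm42004, an annotated gene that does not code for protein. The region at 113824318 was lost in Bcl11b-KO cells and the other 3 were kept. The lost and the kept region inside the gene at 113824318 and 113825532 stood 994 bp apart.

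Ccr7 (Gene ID 12775, chromosome 11, 99144199 to 99155077) carried more regions than the other 4 genes, and none of its 8 had its centre inside the gene. That lead depended on the assignment. With genes of any kind Ccr7 had 5 and S1pr1 7, and with 10 kb on each side Ccr7, S1pr1 and Selplg had 6 each. At least 8 regions were found at 134 (1.22%) of the 11008 protein-coding genes with any, and the median was 1. Bcl11b and Foxp3 were both listed at 5 of the Ccr7 regions in WT Treg cells, at 2 with genes of any kind and at 3 with 10 kb on each side. Foxp3 was lost in Bcl11b-KO cells at 5 regions and kept at 2.

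At the lower-coordinate end of Ccr7, the region at 99143865 to 99144062 was common to Treg and Tn Bcl11b, lost for Bcl11b in KIKO cells and shared with Foxp3. The Bcl11b-KO comparison does not list it, so the WT Foxp3 set holds it in 1 comparison only. Further down, the region at 99136485 to 99136704, 7.6 kb from the gene, was listed for Foxp3 alone and lost in Bcl11b-KO cells.

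A pair of regions stood at the higher-coordinate end of Ccr7, 41 bp from each other. The nearer, at 99155130 to 99155349, was shared by Bcl11b and Foxp3 and its Foxp3 was lost in Bcl11b-KO cells. Its neighbour at 99155391 to 99155666 was listed as kept. Joining regions within 500 bp turned the pair into 1 kept region and left 4 lost ones at Ccr7.

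The remaining 4 Ccr7 regions extended to 15.9 kb beyond the higher-coordinate end. That at 99163093 to 99163521, the widest of the 8 at 429 bp, was the only Treg-specific Bcl11b region of the 5 genes in the comparison with Tn cells. Its Bcl11b was lost in KIKO cells, it was shared with Foxp3, and its Foxp3 was kept in Bcl11b-KO cells. The regions at 99168137 to 99168356 and 99170823 to 99171148 were shared and lost for Foxp3, and that at 99160845 to 99161064 was listed for Foxp3 alone and lost. Of these 4 regions, 3 are nearer to Gm32249, an annotated gene that does not code for protein, than to Ccr7: those at 99163093, 99168137 and 99170823. With such genes included, and also with a limit of 10 kb from the gene, 3 lost Foxp3 regions stood at Ccr7.

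Gpr183 (Gene ID 321019, chromosome 14, 121952331 to 121965193) lies inside the larger gene Ubac2, and its 2 regions are inside both. They were assigned to Gpr183 because its ends are nearer. The region over the start site, at 121965039 to 121965314, was listed for Foxp3 as common to WT and Bcl11b-KO cells and in no other comparison, although the comparison with Bcl11b also used WT Foxp3. The region at 121954689 to 121954964 was shared by Bcl11b and Foxp3, and its Foxp3 was kept. No region of Gpr183 was listed in the Tn or KIKO comparison.

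Ubac2 carried 13 regions, and 3 of them lay within 10 kb of Gpr183. Those at 121946818 and 121948030 were lost for Foxp3 in Bcl11b-KO cells, and that at 121951431, 0.79 kb from Gpr183, was kept. Which of the genes these regions serve cannot be read from position.

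S1pr1 (Gene ID 13609, chromosome 3, 115710433 to 115715055) had the most Bcl11b regions of the 5 genes in the Tn comparison, 4, and all were common to Treg and Tn cells. Its 4 WT Foxp3 regions in the comparison with Bcl11b-KO cells were all kept. The stretch of genome nearest to S1pr1 is long, at 191 kb, so its 7 regions come to 3.66 per 100 kb, against 12.2 at Ccr7, 13.9 at Klf2 and 17.6 at Selplg.

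Bcl11b regions of S1pr1 lay in and just beyond the gene. The region at 115714898 to 115715095 covers the higher-coordinate end, and that at 115715309 to 115715730 follows 213 bp later. Both were common with Tn cells, lost in KIKO cells and shared with Foxp3, and Foxp3 was kept in Bcl11b-KO cells at the second, while the first was not listed in that comparison. The region at 115722033 to 115722230, 7.08 kb from the gene, was common with Tn cells, kept in KIKO cells and listed for Bcl11b without Foxp3, the only Bcl11b-only region of the 5 genes. Inside the gene, the region at 115712893 to 115713118 was listed as common to Treg and Tn and in no other comparison, although 2 others used Treg Bcl11b.

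Foxp3 was listed without Bcl11b on both sides of S1pr1, at 115706744 to 115707019, 3.55 kb below the gene, and at 115729233 to 115729534, 14.3 kb above it. A further region at 115704558 to 115704833, 5.74 kb below, was listed in the Bcl11b-KO comparison only. All 3 were kept.

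Klf2 (Gene ID 16598, chromosome 8, 72319062 to 72321654) had the single Tn-specific and the single Bcl11b-KO-specific region among the 28. Its start site is covered by the region at 72318846 to 72319321, whose sequence before the start is printed above. Bcl11b there was common to Treg and Tn cells and lost in KIKO cells, the region was shared with Foxp3, and Foxp3 was lost in Bcl11b-KO cells. Each factor was thus listed at the Klf2 start site in WT Treg cells, and neither was listed there in the cells without the other. The same classes in all 4 comparisons were found at 254 regions of the series (1.15%). Over all regions of their comparisons, Bcl11b was lost in KIKO cells at 61.6% and Foxp3 in Bcl11b-KO cells at 27.2%.

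Upstream of Klf2, the region at 72303488 to 72304029, 15.3 kb away and 542 bp wide, was Tn-specific for Bcl11b. WT Treg cells had Foxp3 listed there without Bcl11b, and Foxp3 was kept in Bcl11b-KO cells. The region at 72311785 to 72312060, 7.14 kb upstream, was specific to Bcl11b-KO Foxp3. Both are nearer to Gm10282, an annotated gene that does not code for protein.

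Downstream of Klf2, the region at 72321912 to 72322131 was shared by Bcl11b and Foxp3 and lost for Foxp3, and the next, at 72322572 to 72322791 and 440 bp away, was listed for Foxp3 alone and kept. The region at 72330923 to 72331410, 9.51 kb from the gene, was likewise listed for Foxp3 alone and kept. When regions within 500 bp were joined, the lost downstream region merged with its kept neighbour.

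**Figure D2:**
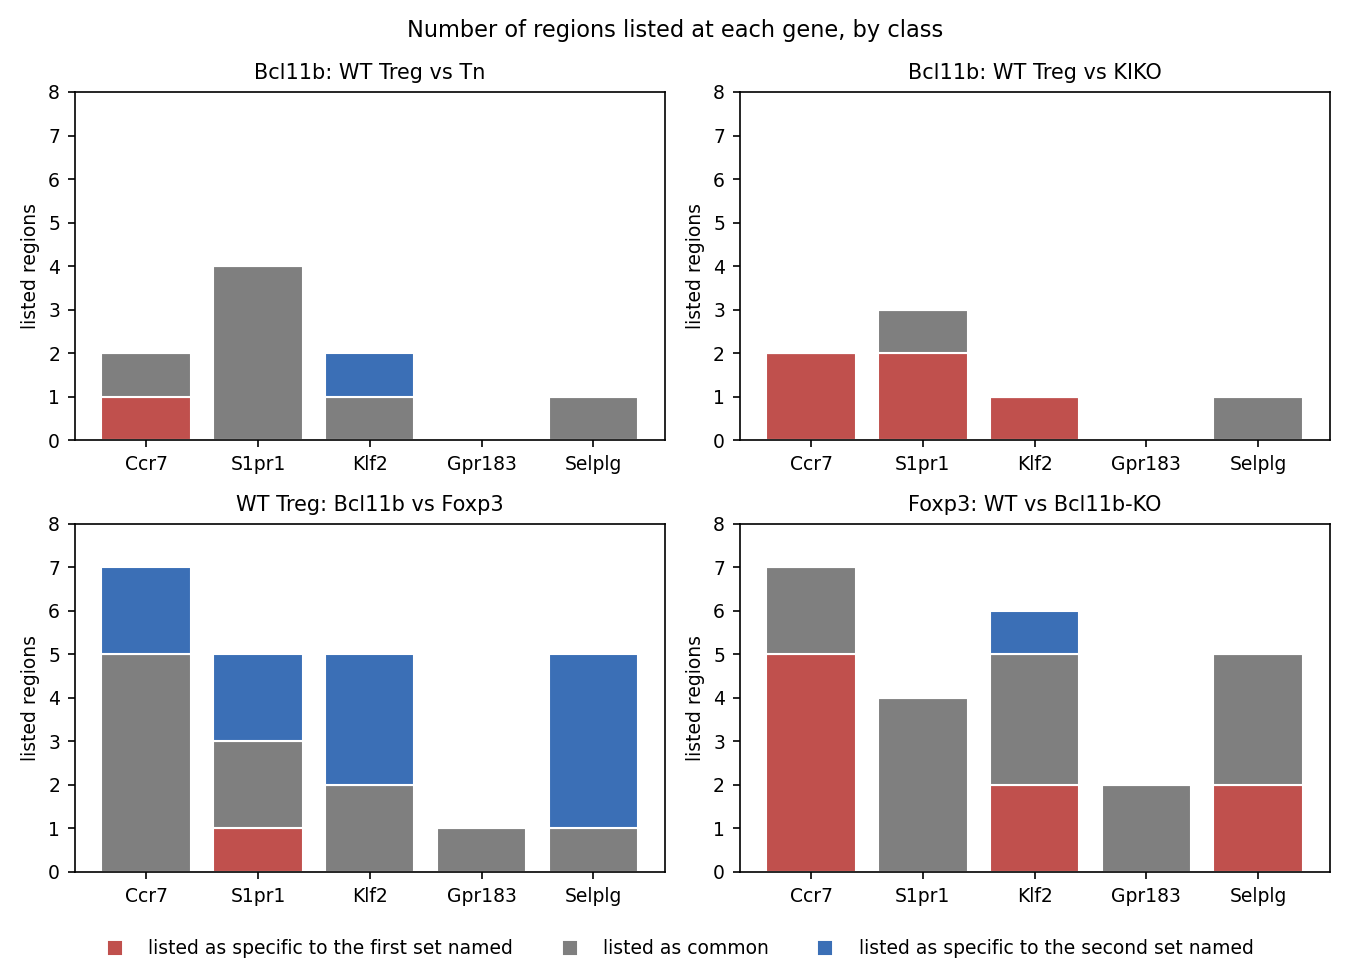
Number of listed regions on the vertical axis for each gene, 1 panel a comparison, stacked by class. Bcl11b regions in the upper panels number at most 4 a gene and none at Gpr183, while Foxp3 classes in the lower right panel differ between Ccr7, with 5 lost and 2 kept, and S1pr1, with 4 kept.

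Bcl11b in WT Treg and Tn cells was compared to find sites particular to Treg cells. Of 9 listed regions at the 5 genes, 7 were common (77.8%, 45.3 to 93.7), against 62.0% of all 7243 regions in this comparison. The single Treg-specific region, at Ccr7, compares with 28.0% of all. The single Tn-specific region, at Klf2, compares with 725 of the 7243. The intervals for the 5 genes include each of these backgrounds.

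With KIKO cells, the question was which Bcl11b sites remain when Foxp3 is missing. At the 5 genes, 5 of 7 listed regions were lost (71.4%, 35.9 to 91.8), 2 each at Ccr7 and S1pr1 and 1 at Klf2. This is near the 61.6% lost among all 5713 regions. Those kept were the region at the end of Selplg and the region of S1pr1 at 115722033, against 37.2% of all regions kept. No KIKO-specific region was found, and such regions made up 1.17% of the comparison.

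Setting Bcl11b beside Foxp3 in WT Treg cells shows how far their sites coincide. Of 23 regions listed at the 5 genes, 11 were shared (47.8%, 29.2 to 67.0), against 28.3% of all 16747 regions. The lower limit of that interval fell below 28.3% under 4 alternatives: 26.9% with the regions of Gpr183 left to Ubac2, 25.6% with 10 kb around each gene, 24.6% with genes of any kind and 23.7% with regions wider than 276 bp. With regions within 500 bp joined it was 28.3%, level with the share of all. That share covers regions of every width as listed, and was not recomputed for wider or joined regions. Over all regions, shared ones had a median width of 292 bp, against 220 bp for Foxp3 alone and 198 bp for Bcl11b alone. The 23.7% therefore has no share of all regions of like width beside it. Among the 12 classes of the 4 comparisons, only the shared class had an interval that left out the share of all regions. Foxp3 alone was listed at 11, against 56.8% of all, and Bcl11b alone at 1 (4.35%, 0.772 to 21.0), against 14.9%. The shared regions numbered 5 at Ccr7, 2 each at S1pr1 and Klf2, and 1 each at Gpr183 and Selplg. Of these 11, 5 were listed for Treg Bcl11b in neither of the other comparisons that use it: those of Ccr7 at 99155130, 99168137 and 99170823, that of Klf2 at 72321912 and that of Gpr183. The 6 listed elsewhere (54.5%) compare with 62.5% of all 4738 shared regions. Another 2 of the 11, that of Ccr7 at 99143865 and that of S1pr1 at 115714898, were not listed for Foxp3 in the Bcl11b-KO comparison. Both factors were listed elsewhere only at Ccr7 99163093, S1pr1 115715309, the Klf2 start site and the Selplg end. Of all WT Foxp3 regions at the 5 genes, 80% stood in both comparisons that use WT Foxp3, against 82.5% over all genes.

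Foxp3 sites in the presence and absence of Bcl11b were compared last. Lost regions numbered 9 of 24 at the 5 genes (37.5%, 21.2 to 57.3), against 27.2% of all 17673 regions. They fell at Ccr7, with 5, and at Klf2 and Selplg, with 2 each. Kept regions numbered 14 (58.3%), against 59.7% of all, and the single KO-specific region compares with 13.1% of all. Among markers of other cell types, 2 of 3 regions at B cell genes and 4 of 5 at myeloid genes were KO-specific, and their part in the Klf2 region was not tested.

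**Figure D3:**
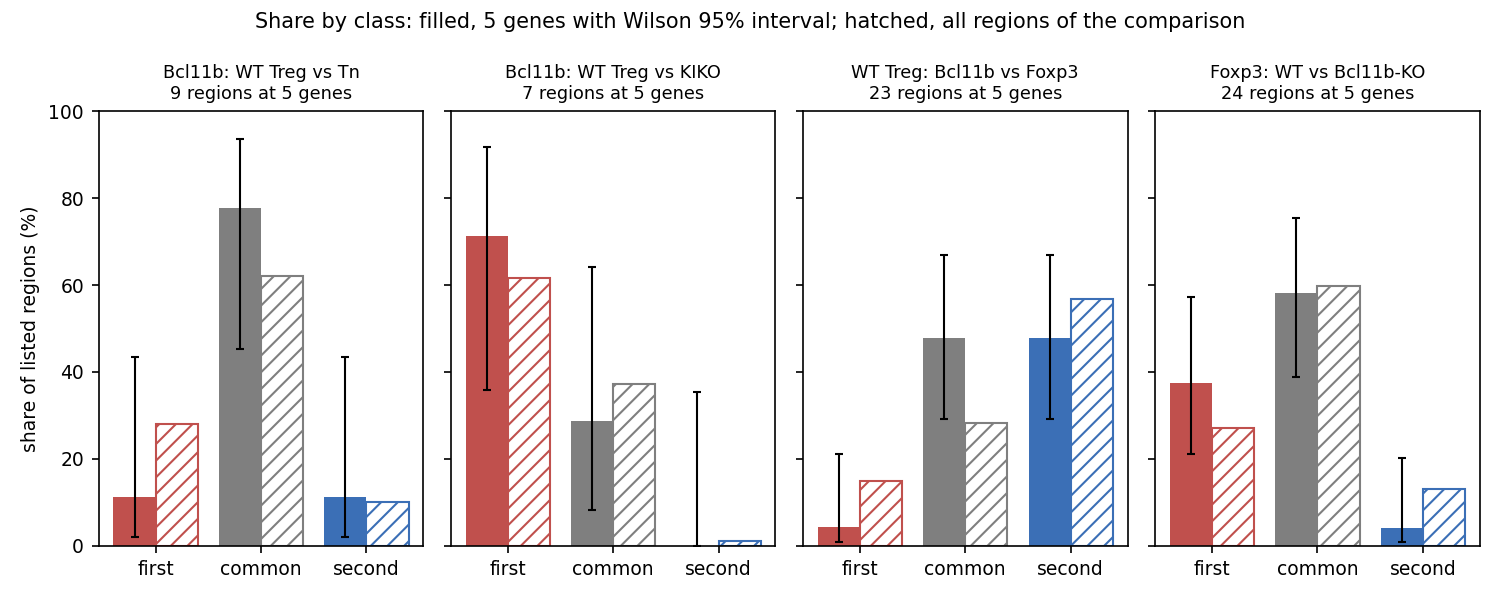
Share of listed regions in percent, on the vertical axis, in each class of the 4 comparisons; filled bars give the 5 genes together with Wilson 95% intervals and hatched bars give all regions of the comparison. The interval of the shared class in the third panel, 29.2 to 67.0%, starts just above the hatched 28.3%. Its lower limit falls below 28.3% under 4 alternative settings. The setting of regions wider than 276 bp is among them, and the 28.3% was not recomputed for it. The intervals of the other classes include the hatched value.

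The share of Foxp3 regions listed as lost was set beside that of other genes. Among the 700 protein-coding genes with at least 4 WT Foxp3 regions in this comparison, the median share lost was 25%. Ccr7, at 71.4% (5 of 7), stood with the 76 genes (10.9%) that had at least that share. Its lost regions numbered 4 with regions joined and 3 with genes of any kind or a limit of 10 kb. Among regions wider than 276 bp, 1 was lost and 1 kept at Ccr7. Ranks were not computed under these settings. Klf2 and Selplg each lost 2 of 5, and 301 genes (43%) lost at least that share. S1pr1, at 0 of 4, was among 135 genes (19.3%) with no region lost. With so few regions a gene, the Wilson intervals of Ccr7 among its listed regions (35.9 to 91.8%) and of S1pr1 (0 to 49%) overlap.

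**Figure D4:**
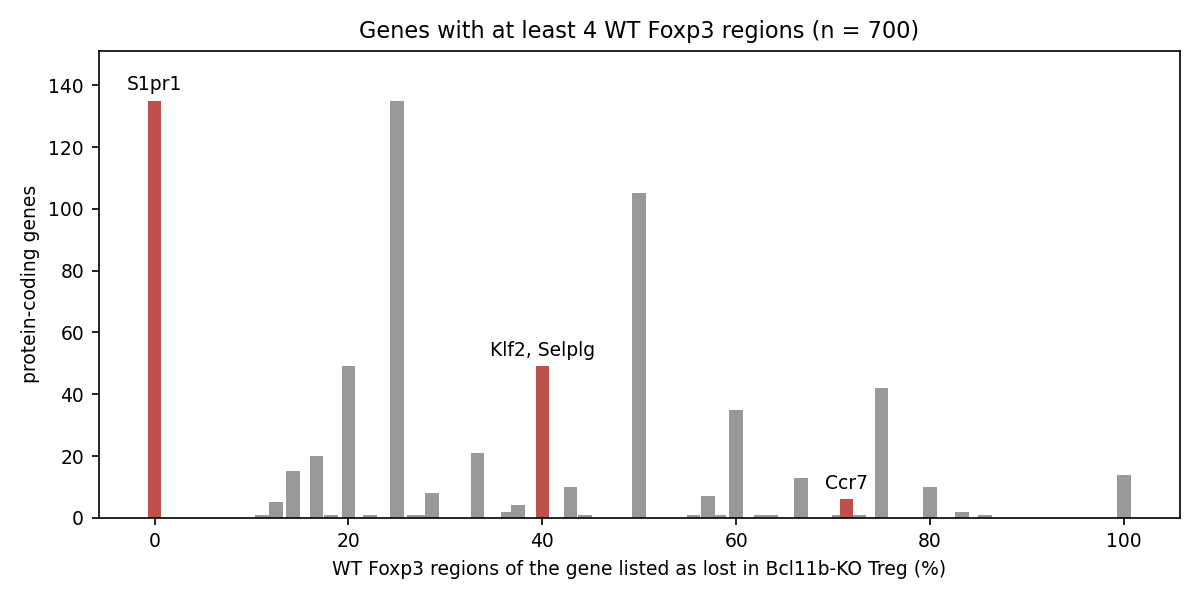
Number of protein-coding genes, on the vertical axis, by the percent of their WT Foxp3 regions listed as lost in Bcl11b-KO Treg cells, for the 700 genes with at least 4 such regions; bars in red hold the named genes. Ccr7 stands at 71.4%, Klf2 and Selplg at 40% and S1pr1 at 0%, with the median gene at 25%.

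Lost Foxp3 regions stood both at gene ends and away from them. Of the 28 regions, 9 (32.1%) had their centre within 1 kb of an end of their own gene, and 37.9% of all regions lay as near to the end of some protein-coding gene. Inside their gene lay 8 (28.6%), against 60.4% of all regions inside a gene. The 5 genes are 2593 to 14731 bp long, while the 60.4% covers genes of every length, and the shares were not adjusted for length. Foxp3 was lost at 4 of the 7 near-end regions listed in the Bcl11b-KO comparison and at 5 of the 17 others. Over all regions of that comparison, 27.8% of those within 1 kb of a protein-coding gene end were lost and 26.9% of those farther away. The 4 were the start site and downstream regions of Klf2, the higher-coordinate end of Ccr7 and that of Selplg.

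Region width is the only other property that the lists hold. Each set has a most frequent width, 198, 226 and 252 bp for Bcl11b in Treg, Tn and KIKO cells and 220 and 276 bp for Foxp3 in WT and Bcl11b-KO cells, and 18 of the 28 regions (64.3%) had such a width, against 69.7% of all. Of the 9 lost Foxp3 regions, 6 were exactly 220 bp wide, against 67.9% of all lost regions. Of the 14 kept, 6 were 276 bp wide and 1 was 220 bp, against 30.1% and 23.6% of all kept. The wider lost regions were the start site of Klf2 at 476 bp, the end of Selplg at 434 bp and the Ccr7 region at 99170823 with 326 bp.

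Genes with a like pattern were sought by the summed absolute difference in region counts over the 12 classes. Among those most like Ccr7, which has 18 listings in all, were Mrtfa, a coactivator gene, and Tank, an adaptor gene, each at a difference of 6. Mrtfa had 8 regions, of which 5 were lost for Foxp3 and 2 kept in Bcl11b-KO cells, the same counts as at Ccr7. Of its regions 3 were shared by Bcl11b and Foxp3 and 4 listed for Foxp3 alone, and its single Bcl11b region in the Tn comparison was Treg-specific. Tank had 5 regions, with 2 lost and 2 kept for Foxp3.

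Nearest to Klf2 was Zdhhc18, at a difference of 1, with the same counts except for the KO-specific region, then Phlda1 and Rnf145 at 2. Fam3c and Cmya5 were nearest to Selplg at 1, followed by Arhgap5 at 2, a distance that 11 genes share. For S1pr1 these were Fam78a, Cdc37 and Tpt1, each at 4. Genes with few regions have many near neighbours by this measure, and Gpr183, with 2 regions, was left out.

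Other genes of the same traffic were grouped in 5 lists by role. Of their 56 genes, 42 had a region, 176 regions in all, and 50.3% of all protein-coding genes had 1. Over the lists together, Foxp3 regions were lost in 38 of 160 cases (23.8%), against 27.2% of all regions. They were kept in 105 (65.6%, against 59.7%) and KO-specific in 17 (10.6%, against 13.1%). Shared regions numbered 53 of 136 (39%), against 28.3% of all, and Bcl11b-only regions 9 (6.62%), against 14.9%.

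Chemokine guidance and adhesion held 58 regions at 10 of 13 genes. Rap1b, a small GTPase gene of integrin activation, carried 17, with 7 shared, 4 lost, 11 kept and 1 KO-specific for Foxp3. Rap1a, its close relative, carried 7. Of these, 2 were listed for Bcl11b in the Tn and KIKO comparisons, as Treg-specific and as lost, and 3 were listed for Bcl11b in the comparison with Foxp3, 2 of them shared. Of 46 regions in this list, 25 were shared by the factors (54.3%), 7 of them at Rap1b, against 28.3% of all regions. Foxp3 was lost at 14 of 52 (26.9%), near the 27.2% of all.

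Sphingosine-1-phosphate egress held 38 regions at 10 of 13 genes. Cd69, whose protein removes the S1pr1 receptor from the surface of activated T cells, carried 12 regions. None was listed in the Tn or KIKO comparison, but in WT Treg cells 3 were shared by Bcl11b and Foxp3 and 7 listed for Foxp3 alone. Of its Foxp3 regions, 4 were lost, 7 kept and 1 KO-specific. Gna13, a G protein gene, had 7 regions without Bcl11b, and Grk2, a receptor kinase gene, had 2 kept and 2 KO-specific Foxp3 regions. The 7 Bcl11b regions of the list in the Tn comparison were all common, against 62.0% of all regions.

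Among 11 regulators of the programme, 10 had a region, 43 in all. Klf13 carried 9, with 2 Tn-specific Bcl11b regions beside 1 common, and Klf6 carried 7, with 4 Foxp3 regions kept and none lost. Mef2d, a MEF2 gene, had 5, with 3 shared and 4 kept for Foxp3. Of the list's 39 Foxp3 regions, 8 were lost (20.5%), against 27.2% of all regions. Selectins and the enzymes that build their ligands held 32 regions at 9 of 14 genes. Foxp3 was lost at 7 of 30 regions of that list (23.3%), against the same 27.2%. B4galt1, a galactosyltransferase gene, kept all 6 of its Foxp3 regions. Selp, the P-selectin gene, had 2 lost, 2 kept and 1 KO-specific, and Spn, the leukosialin gene, had 2, 1 and 1. Of 5 oxysterol genes 3 had a region, 3 at P2ry10 and 1 each at Cyp7b1 and Hsd3b7, the last 2 for Bcl11b without Foxp3.

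**Figure D5:**
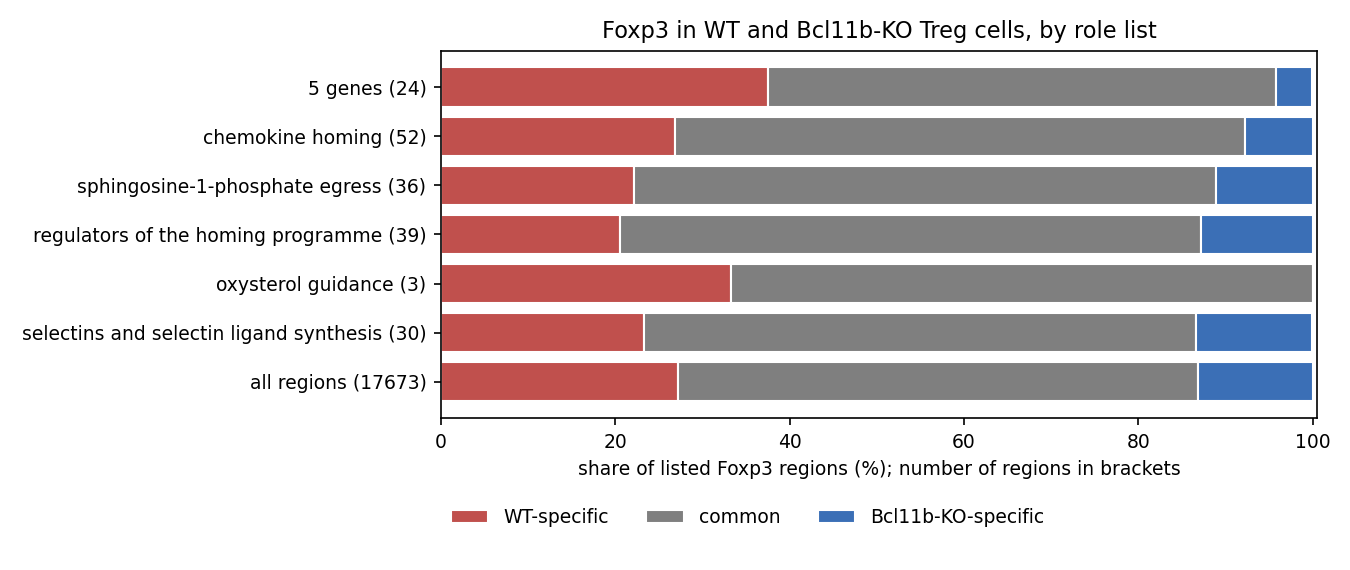
Share of listed Foxp3 regions in percent, on the horizontal axis, that were specific to WT, common or specific to Bcl11b-KO Treg cells, for the 5 genes, the 5 role lists and all regions, with the number of regions in brackets. The 5 genes have 37.5% WT-specific, the 4 lists with at least 30 regions have 20.5 to 26.9%, and all regions have 27.2%.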

How the data were processed

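Per the submitters' processing notes, reads were handled on mm10 with HISAT2 2.1.0, HOMER 4.10.1, SAMtools 1.3, FastQC, deepTools, cutadapt 1.12 and Trim Galore 0.4.2. The sources used here give no roles, peak threshold, pooling of replicates or rule for specific and common. The authors deposited 12 lists with 3 columns of position and no unit of signal, so depth is unknown. Repeated rows (127) were dropped, and regions in 2 classes of a comparison were left out of it (17 in the Bcl11b-KO comparison and 4 in each of the Tn and KIKO ones, none at the 5 genes). Genes came from the RefSeq table of GRCm38.p6, without strand, and start sites from its promoter table. Centres inside several genes went to the gene with the nearer end. A second coding of the same assignment rule gave the same gene for 2200 of 2200 simulated centres. This checks the code and not whether a region acts on the gene. Nothing was tested between groups. The 5 genes, the role lists and how genes were picked for naming (each of the 5, the 3 genes of each role list with most regions, and the 3 genes most like each of the 5 with at least 3 regions) were chosen with earlier results of these data known. A gene that this naming picks is not reported here. Alternatives are listed at the end. Software was matplotlib 3.10.9, scipy 1.17.1, pandas 2.3.3 and numpy 2.4.6 under Python 3.11.15.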

Additional observations from a re-analysis of the deposited data

How the results depend on the processing

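Counts over the 5 genes could not change with a limit of 20 kb, since their farthest region lay 15.9 kb away. Nor could they change with regions of 2 classes counted in both, since none stood at the 5 genes. Keeping repeated rows, joining regions within 500 bp, leaving the regions of Gpr183 to Ubac2 (26 regions, chosen after seeing the data) and counting ends within 2.5 kb (13 for 9) moved no count over the 5 genes by more than 1.5 times. With the nearest gene of any kind, the Treg-specific, Tn-specific and KO-specific counts fell to 0, 0 and 0. With gene bodies and 10 kb on each side, Tn-specific became 0 and KO-specific 2. With only regions wider than 276 bp, a stand-in for a stricter threshold, 10 regions remained, with 3 common in the Tn comparison, 3 lost and 1 kept in KIKO cells, 5 shared, 5 Foxp3-only and 0 Bcl11b-only regions, and 3 lost, 7 kept and 0 KO-specific for Foxp3. The shortened forkhead motif TGTTTA had 1 match, 220 bases before the start of Gpr183. Assignment to the nearest start site was not run, because 2 of the 5 genes had a start site. No paired analysis was possible because the lists are per group and carry no replicate values. For the same reason no replicate could be left out.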
